A study of Mus musculus with 12 samples.

Results

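The 10 genes described here belong to fibroblast growth factor (FGF) signalling through the kinase ERK: Dusp6, Dusp4, Spry2, Spry4, Spred1, Etv4, Etv5, Fgf4, Fgfr1 and Fgfr2. They are 10 of the 55401 genes counted in the series. They were chosen by name and with measured values of these libraries in view, among them the opposite position of Dusp6 in the Nr5a2 and Klf5 knockdowns. The values of the 10 genes are therefore given as a description, and no p-value is attached to any of them.

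RNA-seq was performed on 12 libraries of mouse 8-cell embryos, 10 pooled embryos to a library. Zygotes from 3 to 5 week old B6129F1 females mated with B6CBAF1 males received siRNA by microinjection at 8 to 9 h after fertilization. The groups were control siRNA at 15 µM (control, n = 2), Nr5a2 siRNA at 5 µM (Nr5a2 KD, n = 3), Klf5 siRNA at 10 µM (Klf5 KD, n = 3) and both siRNAs (dKD, n = 4, concentration not given in the sources used here). Every group also received H2B-EGFP at 150 ng/µl. An siRNA lowers a transcript without removing the gene, and a library averages all blastomeres of its 10 embryos. A lower level in fewer cells and less RNA per cell cannot be told apart in such pools. Nothing in the labels says whether the libraries of a group came from separate injections, so p-values measure the spread between these libraries, which may be technical.

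The targeted transcripts were lower in the libraries labelled for their knockdown. Values are CPM, a gene's share of the counts of its library, scaled with TMM factors over the 12 libraries. Nr5a2, the nuclear receptor targeted by the first siRNA, was at 217 ± 10.5 CPM (SD, n = 2) in control, 31.9 ± 7.43 (n = 3) in Nr5a2 KD, 192 ± 69.8 (n = 3) in Klf5 KD and 29.7 ± 3.68 (n = 4) in dKD. Klf5, the zinc finger factor targeted by the second siRNA, was at 455 ± 15.5 CPM in control, 111 ± 35.9 in Klf5 KD and 56.0 ± 19.5 in dKD. It was also lower in Nr5a2 KD, at 139 ± 26.5 CPM, where its log2 fold change was -1.68 (SE 0.225, edgeR adjusted p = 0.0013), so Nr5a2 KD embryos carry less Klf5 transcript as well. Depth ranged from 6676683 to 12560926 counts on genes per library. Mitochondrially encoded genes took 4.41% to 6.75% of counts in 4 libraries (Nr5a2 KD replicate 3, Klf5 KD replicate 1, dKD replicates 3 and 4) and 8.28% to 13.2% in the other 8. Of the markers of the stage, Pou5f1, Nanog, Tead4, Cdh1, Tfap2c and Gata6 had a mean of at least 4.03 CPM in every group, and Cdx2 and Sox2 had group means at or below 0.620 CPM. Summed over the 8 stage markers, control libraries had 360 to 373 CPM and Klf5 KD libraries 320 to 453, whereas Nr5a2 KD had 197 to 289 and dKD 247 to 262. The sum was thus lower with Nr5a2 siRNA, and its part in the results was not tested. The 6 oocyte markers summed to 54.4 to 120 CPM over the libraries. Markers of cumulus and granulosa cells summed to 0.236 to 3.29 CPM over the libraries, with 1 of 8 (Ptx3) at 0 throughout, and those of sperm to 0.283 to 2.81 CPM, with Tnp2 at 0.

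FGF ligands bind receptor tyrosine kinases at the cell surface, and the receptors activate the RAS, RAF, MEK and ERK chain of enzymes. Active ERK switches on target genes, and several of these targets encode inhibitors that act back on the chain: the phosphatases DUSP6 and DUSP4 remove phosphate from ERK, and the SPRY and SPRED proteins act on the steps above it. In the mouse blastocyst, FGF4 from epiblast precursors acts through FGFR1 and FGFR2 in setting primitive endoderm apart from epiblast, and the levels of the feedback genes are commonly read as a sign of pathway activity. The 8-cell stage precedes that choice.

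RefSeq promoters (250 bases before to 50 bases after the start, GRCm38.p6) were listed for 6 of the 10 genes. Those of Dusp6, Spry2 and Etv5 are shown because these 3 genes stood higher in Nr5a2 KD and in dKD than in control, with no overlap of libraries. The windows are chr10:99262981-99263280 on the plus strand for Dusp6, chr14:105896770-105897069 on the minus strand for Spry2 and chr16:22439521-22439820 on the minus strand for the first of 2 Etv5 starts. Each is written 5′ to 3′ in the direction of the gene, and capitals mark a match to any of 4 motifs searched on both strands: AAGGTCA (NR5A), CCGGAAG (ETS), CCACCC (KLF) and GGGCGG (GC box).
Dusp6: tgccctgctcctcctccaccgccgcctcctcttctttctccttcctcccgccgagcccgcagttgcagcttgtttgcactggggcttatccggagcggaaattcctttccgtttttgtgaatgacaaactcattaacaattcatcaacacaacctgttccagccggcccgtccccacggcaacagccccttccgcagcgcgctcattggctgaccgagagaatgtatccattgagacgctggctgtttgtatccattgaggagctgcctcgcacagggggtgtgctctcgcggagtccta
Spry2: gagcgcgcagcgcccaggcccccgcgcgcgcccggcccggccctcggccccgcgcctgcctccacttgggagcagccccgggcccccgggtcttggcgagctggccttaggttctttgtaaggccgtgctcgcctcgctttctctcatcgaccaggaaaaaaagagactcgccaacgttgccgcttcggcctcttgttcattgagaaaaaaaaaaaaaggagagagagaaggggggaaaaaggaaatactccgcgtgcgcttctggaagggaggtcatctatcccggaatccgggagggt
Etv5: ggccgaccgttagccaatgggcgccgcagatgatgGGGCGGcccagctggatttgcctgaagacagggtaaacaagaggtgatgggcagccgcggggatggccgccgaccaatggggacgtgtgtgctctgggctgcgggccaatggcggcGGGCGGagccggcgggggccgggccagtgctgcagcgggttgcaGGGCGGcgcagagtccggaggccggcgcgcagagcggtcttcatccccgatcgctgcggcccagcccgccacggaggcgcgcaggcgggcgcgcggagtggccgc
Of these 3 windows only that of Etv5 held a match to the 4 motifs, with 3 GC boxes that begin at -215, -99 and -55 bases from the start. The NR5A search covered AAGGTCA alone. The NR5A2 site that the paper used on a nucleosome differs within this run, and that form was not part of the search. A part of that form can be read on the other strand of the Spry2 window and of the Fgfr2 window. How often it occurs in promoters was not counted. GGGCGG occurred in 35.9% of the 27025 promoters, CCACCC in 30.9%, CCGGAAG in 9.12% and AAGGTCA in 4.66%. Of the other listed windows, Spred1 held 3 GC boxes, Fgf4 held 2 and Fgfr2 held none of the 4 motifs. The windows of Spred1, Fgf4 and Etv5 had a GC content of 72.3%, 69.7% and 74.0%, those of Spry2 and Dusp6 62.7% and 57.3%, and that of Fgfr2 43.7%. A match is a run of letters and no evidence of binding, and these windows say nothing of sites farther away.

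In control embryos the inhibitors Spry2 and Spred1 and the receptor Fgfr2 had the highest levels per exon length, and Etv4 was at 0. Levels between genes are compared as CPM per kilobase of exon. Spry2 stood at 8.00 ± 1.02 (SD, n = 2), Spred1 at 5.07 ± 0.616, Fgfr2 at 4.97 ± 0.796 and Fgf4 at 3.18 ± 0.480. Etv5, at 1.36 ± 0.2499, Dusp6, at 1.03 ± 0.314, and Fgfr1, at 0.938 ± 0.0918, followed. Spry4 was at 0.469 ± 0.213 and Dusp4 at 0.220 ± 0.311, and the latter had 0 counts in control replicate 1. Libraries of Spred1 and Fgfr2 overlapped, as did those of Etv5 with Dusp6, Dusp6 with Fgfr1, Spry4 with Dusp4 and Dusp4 with Etv4, so the order within these pairs is not resolved. Spry2 lay above 75.6%, and Dusp6 above 38.8%, of the 17297 genes with counts in both control libraries.

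**Figure D1:**
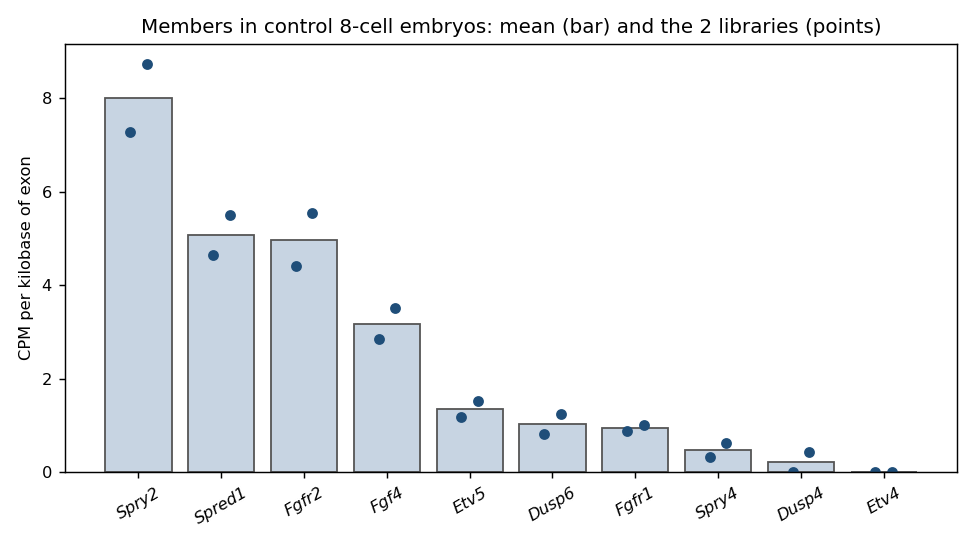
Level of each of the 10 genes in control 8-cell embryos, in CPM per kilobase of exon; bars are means and points are the 2 libraries. Spry2 is highest at 8.00, Spred1 and Fgfr2 are close to 5, and Etv4 is at 0.

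Dusp6 encodes the cytoplasmic phosphatase that acts on ERK, and it spans chr10:99263231-99267489 (plus strand, GRCm38, ENSMUSG00000019960). Control libraries had 3.93 and 2.54 CPM, from 26 and 19 counts. Nr5a2 KD libraries had 33.5, 42.7 and 26.6 CPM, and dKD libraries 15.1, 52.3, 17.1 and 34.5 CPM. Klf5 KD libraries had 0, 0 and 0.146 CPM, a total of 1 count over 3 libraries. Every Nr5a2 KD and dKD library therefore lay above both controls, and every Klf5 KD library below them. The group means were 3.24 ± 0.983 CPM (SD, n = 2) in control, 34.3 ± 8.11 (n = 3) in Nr5a2 KD and 29.8 ± 17.4 (n = 4) in dKD. The dKD libraries spread over 3.46-fold, against 1.61-fold in Nr5a2 KD, and the 2 groups overlapped.

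The log2 fold change of Dusp6 against control was 3.43 (SE 0.363) in Nr5a2 KD and 3.23 (SE 0.562) in dKD. With only 1 count in Klf5 KD the fold was taken from the summed counts: the control level was 84.6-fold that of Klf5 KD, with an exact 95% interval of 14.4 to 3413, and the dKD level was 768-fold that of Klf5 KD, with an interval of 137 to 30359. These intervals cover counting error only. A count of 0 in a Klf5 KD library allows up to 3 counts, or 0.269 CPM in replicate 1 and 0.353 CPM in replicate 2, still below the lowest control. Between dKD and Nr5a2 KD the log2 fold change was -0.21 (SE 0.379). In the library with the lowest mitochondrial share, Klf5 KD replicate 1, Dusp6 had 0 counts, and it had 0 and 1 in the other 2 Klf5 KD libraries. With the 4 libraries of low mitochondrial share left out, its log2 fold change against control was 3.58 in Nr5a2 KD and 3.40 in dKD. No other gene overlaps its exons, and its counts were whole numbers in all 12 libraries.

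Dusp4, the nuclear phosphatase for ERK (chr8:34807297-34819894, plus strand), was near the detection limit. It had 0 and 1.20 CPM in control, 1.88, 0.550 and 1.13 in Nr5a2 KD, 0.628, 1.41 and 0.146 in Klf5 KD, and 1.39, 2.69, 0.353 and 1.18 in dKD. All groups overlapped, and the gene passed the filter on low counts only in the comparisons with dKD. Its log2 fold change of 1.18 in dKD against control had an SE of 1.16. It was 0.23 without control replicate 1, the library with no Dusp4 count. Without control replicate 2, which leaves no Dusp4 count in control, the fit gave 6.44, and under the replicate block 2.23. A difference between groups was not detectable for Dusp4 at this depth.

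Spry2 encodes an inhibitor of receptor tyrosine kinase signalling that is itself an ERK target, and spans chr14:105891947-105896819 on the minus strand. Its level was 15.2 and 18.2 CPM in control, 30.4, 51.0 and 28.4 in Nr5a2 KD, 12.3, 28.9 and 35.1 in Klf5 KD, and 49.9, 52.7, 39.3 and 38.9 in dKD. All 7 libraries with Nr5a2 siRNA lay above both controls, and all 4 dKD libraries above all 3 of Klf5 KD, while Klf5 KD straddled the control. Against control the log2 fold change was 1.16 (SE 0.315) in Nr5a2 KD, 1.47 (SE 0.254) in dKD and 0.60 (SE 0.405) in Klf5 KD. Against Klf5 KD it was 0.84 (SE 0.324) in dKD. Unlike Dusp6, the gene was not lower on average in Klf5 KD, where the mean was 25.5 ± 11.8 CPM (SD, n = 3) against 16.7 ± 2.12 (n = 2) in control.

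Spry4, a second Sprouty inhibitor, on chromosome 18, was sparse. Control libraries had 1.51 and 2.94 CPM, Nr5a2 KD 1.29, 2.06 and 1.63, Klf5 KD 0.897, 1.41 and 0.586, and dKD 1.01, 1.84, 2.59 and 1.53. The 3 Klf5 KD libraries lay below both controls, on 4 to 12 counts each, and all other groups overlapped. The log2 fold change in Klf5 KD was -1.18 (SE 0.764), and in Nr5a2 KD it was -0.40 (SE 0.682). Spred1, a membrane-bound inhibitor of RAF activation (chr2:117121374-117182279, plus strand), had 37.4 and 31.5 CPM in control, 42.0, 41.0 and 30.4 in Nr5a2 KD, 13.9, 21.2 and 48.5 in Klf5 KD, and 56.0, 61.8, 45.0 and 31.6 in dKD. Its groups overlapped in every comparison. The log2 fold change was 0.16 (SE 0.247) in Nr5a2 KD and 0.53 (SE 0.282) in dKD, both against control, and 0.82 (SE 0.384) in dKD against Klf5 KD. Without Klf5 KD replicate 3 the last value was 1.47, and that of Klf5 KD against control went from -0.32 to -0.96.

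Etv5 encodes an ETS transcription factor that ERK signalling induces (chr16:22381309-22439719, minus strand). Its level was 4.84 and 6.29 CPM in control, 10.2, 10.4 and 7.64 in Nr5a2 KD, and 7.44, 14.005, 9.19 and 9.07 in dKD. In Klf5 KD it was 0.718, 3.06 and 4.40 CPM. Every Nr5a2 KD and dKD library lay above both controls and every Klf5 KD library below them, as for Dusp6 but over a narrower range. Against control the log2 fold change was 0.78 (SE 0.381) in Nr5a2 KD, 0.87 (SE 0.372) in dKD and -1.07 (SE 0.626) in Klf5 KD. Against Klf5 KD it was 1.91 (SE 0.509) in dKD. The Klf5 KD value moved with the mitochondrial share: it was -0.60 without the low-share library of that group and 0.28 with the share as a covariate, and the library with the lowest share had the lowest Etv5. Etv4, the closest relative of Etv5 on the list (chr11:101769742-101785371, minus strand), had 0 counts in both controls and in all 4 dKD libraries, 1 count over Nr5a2 KD, and 7 counts over Klf5 KD. It passed the filter in no comparison. Of the 7 counts, 5 were in Klf5 KD replicate 1, at 0.449 CPM, and the other 2 libraries had 1 count each, at 0.118 and 0.146 CPM, under the 0.454 and 0.402 CPM that 0 counts allow in the controls. With the group at 0 set to 3 counts in all, Klf5 KD was at least 1.24-fold control and at least 2.82-fold dKD. These bounds cover counting error only and rest on 7 counts, 5 of them in 1 library. Etv4 was under the filter throughout, so a difference between groups was not tested.

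Group means of the ligand and the receptors stayed within 8.14 to 11.9 CPM for Fgf4, 6.15 to 9.26 for Fgfr1 and 38.9 to 57.6 for Fgfr2. Fgf4, the ligand (chr7:144847367-144865243, plus strand), had 9.08 and 11.2 CPM in control, 7.76, 13.7 and 8.27 in Nr5a2 KD, 12.1, 12.4 and 11.3 in Klf5 KD, and 13.4, 11.2, 4.01 and 4.00 in dKD. The Klf5 KD libraries lay just above both controls, a log2 fold change of 0.24 (SE 0.342), and the Nr5a2 KD value was -0.01 (SE 0.372). The 2 dKD libraries near 4 CPM were the 2 with mitochondrial shares of 6.75% and 6.17%, and the other 2 had shares of 12.8% and 12.6%. The log2 fold change of dKD against control was -0.29 (SE 0.493), and 0.29 without the low-share libraries, so its sign rests on them.

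Fgfr1 encodes the receptor found in both inner cell mass lineages (chr8:25513654-25575718, plus strand). It had 8.62 and 9.91 CPM in control, 8.12, 4.95 and 5.39 in Nr5a2 KD, 4.26, 8.95 and 12.7 in Klf5 KD, and 4.67, 8.35, 6.71 and 7.18 in dKD. All libraries of Nr5a2 KD and of dKD lay below both controls, with log2 fold changes of -0.56 (SE 0.385) and -0.42 (SE 0.347). With library sizes taken from the ERCC spike-in, these turned to 0.20 and 0.37, while the median of all genes moved to 0.82 and 0.84. Such a scaling moves all genes of a library alike, so the place of Fgfr1 below that median is no further result. Fgfr2, the other receptor (chr7:130162451-133123350, minus strand), had 45.5 and 57.2 CPM in control, 39.5, 46.4 and 30.7 in Nr5a2 KD, 37.0, 68.7 and 67.1 in Klf5 KD, and 40.0, 56.9, 43.4 and 40.6 in dKD. Its groups overlapped in all 5 comparisons, with log2 fold changes from -0.38 (SE 0.251) in Nr5a2 KD against control to 0.22 (SE 0.218) in dKD against Nr5a2 KD. Exons of Fgfr1 overlap those of Gm16159 on the opposite strand and exons of Fgfr2 overlap Ctbp2 on the same strand, and the counting, which did not use strand, split shared reads.

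**Figure D2:**
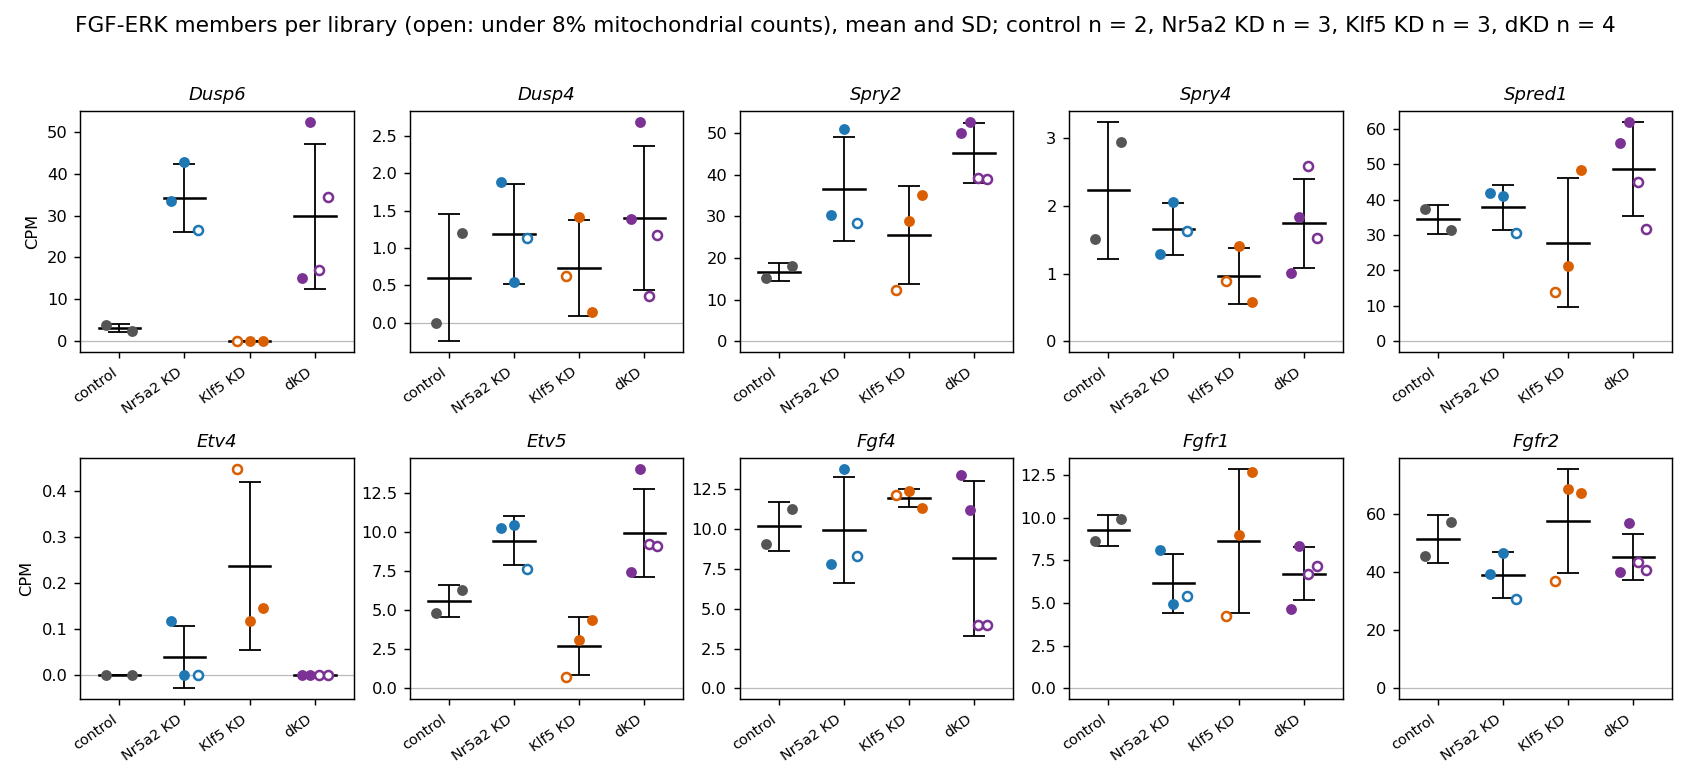
CPM of the 10 genes in each library, by group; points are libraries (open where mitochondrially encoded genes took under 8% of counts), and lines and bars are mean and SD. Dusp6 is between 15.1 and 52.3 CPM in all 7 libraries with Nr5a2 siRNA, near 3 in control and at or near 0 in Klf5 KD, and Etv5 has the same order over a narrower range.

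Dusp6 was called in each of the 3 comparisons that add Nr5a2 siRNA, Spry2 in 2 of them and Etv5 in 1. A call needed a change of at least 2-fold and a Benjamini-Hochberg adjusted p, over all genes of the fit, under 0.05 (edgeR, two-sided). For Nr5a2 KD against control, 8 of the 10 genes passed the filter and 2 were called higher (Dusp6 and Spry2), in a comparison that called 3.45% of 13262 genes higher and 4.42% lower. For dKD against control, 9 passed and 2 were called higher (Dusp6 and Spry2), beside 3.38% of 13724 genes higher and 3.85% lower. With ERCC library sizes 4 were called higher there (Spred1, Dusp6, Spry2 and Etv5), in a fit that called 2838 genes higher and 178 lower. Without control replicate 1, or without control replicate 2, no gene of the 10 was called in dKD. In Nr5a2 KD, Spry2 was lost without either control library, without Nr5a2 KD replicate 1 or replicate 2, and with all 12 libraries in one fit. For dKD against Klf5 KD, 9 passed and 2 were called higher (Dusp6 and Etv5), beside 5.38% of 12904 genes higher and 5.41% lower. Without Klf5 KD replicate 2, without dKD replicate 2 or among libraries with a mitochondrial share of at least 8%, only Dusp6 was called there, and without Klf5 KD replicate 3 Spred1 was called as well. The replicate block also ended the Etv5 call. Since the genes were chosen on these contrasts, nothing is read from these counts.

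For Klf5 KD against control, 0 of 8 genes were called, as were 0% of the 12838 genes tested by edgeR. In that comparison 1087 genes had an unadjusted p under 0.05, and DESeq2 called 42 genes lower and 8 higher. With ERCC library sizes edgeR called 4 lower and 21 higher, with no filter on low counts 69 and 45 of 26383, and with all 12 libraries in one fit 4 lower. Dusp6 was among the genes called lower by DESeq2, in these 3 fits and under the replicate block. Klf5 itself, at -2.03 (SE 0.293, adjusted p = 0.0996), was not called, nor in dKD against Nr5a2 KD (-1.31, SE 0.260, adjusted p = 0.999), so calls of 0 in these comparisons say little. For dKD against Nr5a2 KD, 0 of 9 were called, beside 0% of 13017 genes (447 at an unadjusted p under 0.05, 4 called lower by DESeq2), and the 9 log2 fold changes lay between -0.29 and 0.36. The median log2 fold change of the genes that passed was 0.07 in Nr5a2 KD, -0.22 in Klf5 KD and 0.53 in dKD against control, 0.84 in dKD against Klf5 KD, and 0.13 in dKD against Nr5a2 KD. Medians over all genes tested were 0.04, 0.0045, 0.05, 0.02 and 0.01 in the same order. The medians of the 10 genes were the same with Dusp6 at its count ratio.

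The counts of genes whose libraries did not overlap, among those of the 10 that passed the filter, are read against the same share over all genes. In Nr5a2 KD against control, 3 genes lay above (Dusp6, Spry2, Etv5) and 1 below (Fgfr1), where 19.9% and 22.5% of all genes tested did so. In Klf5 KD, 1 lay above (Fgf4) and 3 below (Dusp6, Etv5, Spry4), beside 12.6% and 14.4%. In dKD against control, 3 lay above (Dusp6, Spry2, Etv5) and 1 below (Fgfr1), beside 17% and 19.3%. In dKD against Klf5 KD, 3 lay above (Dusp6, Spry2, Etv5) and 0 below, beside 12.3% and 12.6%. In dKD against Nr5a2 KD all 9 overlapped, where 2.34% and 2.43% of all genes did not. The rule takes no account of replicate numbers, and same-numbered libraries of these 2 groups deviated together from their group means.

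**Figure D3:**
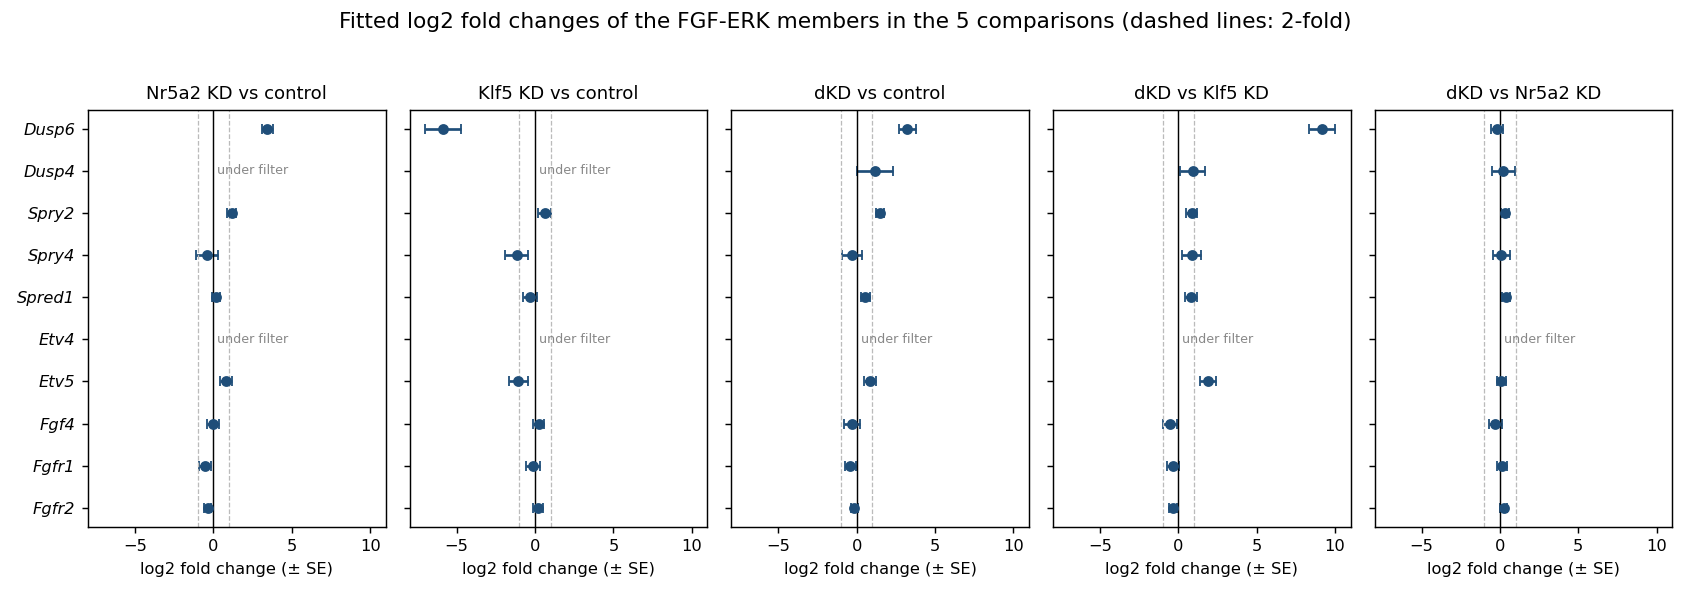
Fitted log2 fold change (point) and SE (bar) of the 10 genes in the 5 comparisons; dashed lines mark 2-fold, and genes under the filter on low counts have no point. Dusp6 stands at 3.43 in Nr5a2 KD and 3.23 in dKD against control and on the other side of 0 in Klf5 KD, where its fitted value rests on 1 count, while all genes lie close to 0 in dKD against Nr5a2 KD.

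Nr5a2 KD against control and dKD against Klf5 KD both ask what Nr5a2 siRNA does, without and with Klf5 siRNA. They share no library, though same-numbered libraries of Nr5a2 KD and dKD deviated together from their group means. Of the 8 genes that passed in both, 7 had the same sign, where 71.5% of 12393 genes did, and since the 8 were chosen on these values the count is a description only. Spry4 was the exception, at -0.40 (SE 0.682) and 0.84 (SE 0.612). The first value was 0.36 with ERCC library sizes and 0.17 without control replicate 2, so its sign is not settled. Dusp6, Spry2 and Etv5 were higher with Nr5a2 siRNA on both backgrounds, and Fgf4, Fgfr1 and Fgfr2 had negative values on both, from -0.01 to -0.56. Those of Fgf4 turned to 0.09 and 0.07 among libraries with a mitochondrial share of at least 8%. With ERCC library sizes Fgf4, Fgfr1 and Fgfr2 turned to 0.71, 0.20 and 0.35 in Nr5a2 KD against control, beside 0.82 for the median of all genes. In dKD against Klf5 KD they stayed negative under that scaling. Klf5 KD against control and dKD against Nr5a2 KD, which ask the same of Klf5 siRNA, gave the same sign in 3 of 8 genes, where 55.6% of 11941 genes did. For Dusp6 the control level was 84.6-fold that of Klf5 KD, whereas dKD and Nr5a2 KD differed by a log2 fold change of -0.21 (SE 0.379). The interaction of the knockdowns, fitted over 12 libraries, gave Dusp6 a log2 value of 5.71 (SE 1.08), Spry4 1.26 (SE 0.874) and Etv5 1.14 (SE 0.671), and edgeR called 0 of the 9 genes that passed and 0% of 14830 genes (715 at an unadjusted p under 0.05). DESeq2 called 3 genes, Dusp6 among them, and edgeR also called Dusp6 when no filter on low counts was used. Dusp6 was chosen for its opposite values in the single knockdowns, which is what the interaction measures, so nothing is read from its calls.

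**Figure D4:**
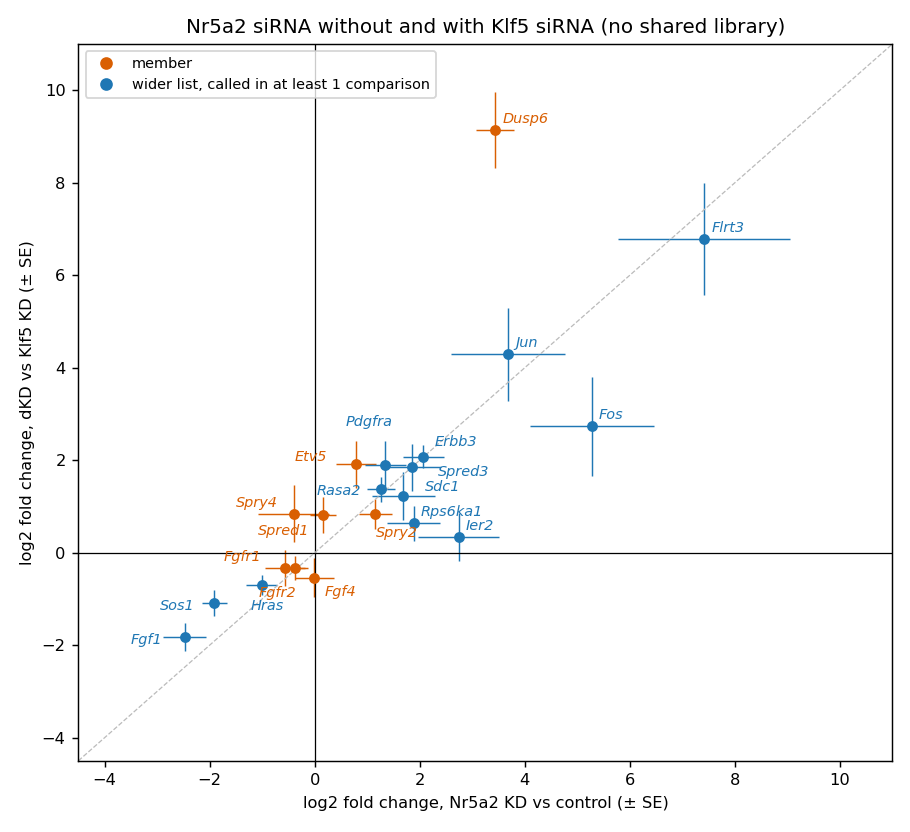
Log2 fold change (± SE) with Nr5a2 siRNA in embryos without Klf5 siRNA (x axis, Nr5a2 KD against control) and with it (y axis, dKD against Klf5 KD), for the FGF-ERK genes and for genes of a wider list called at least once; the dashed line marks equal values. Most points lie near the line, Fgf1 and Sos1 at the lower left, and Dusp6 lies above it, with a fitted y value that rests on 1 count in Klf5 KD.

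In 2 of the groups the library with the lowest mitochondrial share was most often the lowest for these genes, and the part of that share in the values was not tested. Among the 7 genes with a group mean of at least 5 CPM (Dusp6, Spry2, Spred1, Etv5, Fgf4, Fgfr1 and Fgfr2), Klf5 KD replicate 1, at a share of 4.41%, was the lowest library of its group in 5, and replicate 3, at 11.8%, the highest in 5. Nr5a2 KD replicate 3, at 6.18%, was the lowest in 5. In dKD, replicate 2, at 12.6%, was the highest in 6, but replicate 1, at 12.8%, was the lowest in 4. In Klf5 KD, Etv5 spread 6.12-fold, Spred1 3.49-fold, Fgfr1 2.97-fold and Spry2 2.84-fold, whereas Fgf4 spread 1.10-fold. No control library had a low share. Restricted to the 8 libraries with a share of at least 8%, the log2 fold change of Spry2 was 1.30 in Nr5a2 KD and 1.64 in dKD against control, that of Etv5 0.90 and 0.96, and that of Spred1 0.29 and 0.80. Values of Klf5 KD against control moved more. With the share as a covariate they went from 0.60 to 1.45 for Spry2, from -0.32 to 0.67 for Spred1 and from -0.12 to 0.75 for Fgfr1, and the fitted value of Dusp6, which rests on 1 count, from -5.89 to -3.71.

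A wider list of the pathway, 95 genes of which 94 were found in the files (Spry3 was not), was tested in the same fits, with p-values adjusted over all genes. It was drawn up with earlier results of these data known, so its counts and p-values are no independent support. In Nr5a2 KD against control, 9 of 54 genes that passed the filter were called (16.7%, against 7.86% of all genes), 3 lower and 6 higher. In dKD against control 8 of 62 were called, 2 lower and 6 higher, against 7.24% of all genes, and in dKD against Klf5 KD 8 of 58, also 2 lower and 6 higher, against 10.8%. With library sizes from total counts the split in Nr5a2 KD was 2 lower and 8 higher, where 453 and 504 of all genes were called. With ERCC library sizes the split was 1 lower and 11 higher, 1 and 19, and 1 and 6. Over all genes the same fits called 90 lower and 761 higher, 178 and 2838, and 350 and 589. With total counts dKD against Klf5 KD gave 1 lower and 10 higher, beside 486 and 1064 over all genes. The median log2 fold changes of the list were 0.18, 0.22 and 0.40, beside 0.04, 0.05 and 0.02 over all genes, also with genes of 0 to 3 counts at their count ratio. No gene of the list was called by edgeR or DESeq2 in Klf5 KD against control (50 tested, 4 at an unadjusted p under 0.05), in dKD against Nr5a2 KD (57 tested, 1) or for the interaction (63 tested, 5). The comparisons against control share their 2 control libraries.

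Among secreted ligands and receptors, Fgf1 fell with Nr5a2 siRNA. Fgf1, a ligand of all FGF receptors, was at 17.9 and 24.5 CPM in control, 4.82, 4.54 and 1.88 in Nr5a2 KD, 16.9, 19.6 and 22.3 in Klf5 KD, and 7.32, 5.94, 4.71 and 3.89 in dKD. The 7 libraries with Nr5a2 siRNA lay below all 5 without it. The log2 fold change was -2.48 (SE 0.406, adjusted p = 0.0037) in Nr5a2 KD and -1.92 (SE 0.324, adjusted p = 0.0064) in dKD against control, and -1.83 (SE 0.306, adjusted p = 0.0024) in dKD against Klf5 KD. Without control replicate 2 the adjusted p was 0.062 in Nr5a2 KD and 0.099 in dKD. Sdc1, a heparan sulfate proteoglycan that binds FGFs, rose in dKD, from 1.27 ± 0.0907 CPM (SD, n = 2) to 5.01 ± 2.10 (n = 4), a log2 fold change of 1.99 (SE 0.556, adjusted p = 0.0496). It was also above both controls in all 3 Nr5a2 KD libraries, at 4.08 ± 1.18 CPM, a value of 1.69 (SE 0.601) that was not called (adjusted p = 0.11), and at 2.19 ± 1.14 in Klf5 KD, and dKD against Klf5 KD gave 1.22 (SE 0.517, adjusted p = 0.15). The dKD call was lost when any of the 6 libraries was left out and with DESeq2 size factors (1.97, adjusted p = 0.0509). It was also lost among libraries with a mitochondrial share of at least 8%, where the value was 2.30 (0.0516). With the share as a covariate the value was 2.33 and the call held. Of 17 ligands and 9 receptors and co-receptors, 5 of each passed the filter in Nr5a2 KD against control, with 1 and 0 called. Fgf3 was at 10.9 ± 3.58 CPM in control and 5.44 ± 1.84 in Nr5a2 KD (adjusted p = 0.18), Fgf2 at 2.76 ± 0.582 and 4.12 ± 1.70 (adjusted p = 0.595), Klb at 10.3 ± 0.0137 and 6.78 ± 0.684 (adjusted p = 0.35), and Fgfr4 at 4.73 ± 1.20 and 9.54 ± 1.42 (adjusted p = 0.13).

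In the RAS-ERK cascade, the exchange factor Sos1 fell with Nr5a2 siRNA, and the ERK-activated kinase Rps6ka1 rose in Nr5a2 KD and dKD against control. Sos1, which loads RAS with GTP, was at 174 and 142 CPM in control, 48.9, 41.5 and 33.3 in Nr5a2 KD, 70.1, 142 and 155 in Klf5 KD, and 64.6, 67.3, 45.7 and 49.7 in dKD. Its log2 fold change was -1.91 (SE 0.234, adjusted p = 8.4e-04) in Nr5a2 KD and -1.44 (SE 0.218, adjusted p = 0.0040) in dKD against control, and -1.09 (SE 0.284, adjusted p = 0.023) in dKD against Klf5 KD. With ERCC library sizes these values were -1.18, -0.69 and -0.91, and none was called. The last call was also lost under total counts (adjusted p = 0.0552) and the replicate block (0.183). Hras, a RAS protein, was at 117 ± 27.2 CPM in control and 57.1 ± 19.7 in Nr5a2 KD, a log2 fold change of -1.01 (SE 0.288, adjusted p = 0.048), and its values of -0.82 in dKD against control (adjusted p = 0.046) and -0.70 in dKD against Klf5 KD (adjusted p = 0.054) were under 2-fold. The Hras call was lost under 5 alternatives: total counts, ERCC library sizes, the replicate block (-0.83), the mitochondrial share as a covariate (-0.60, adjusted p = 0.23) and the restriction to libraries with a share of at least 8% (-0.82). Rps6ka1 was at 2.39 ± 0.597 CPM in control, 8.67 ± 3.57 in Nr5a2 KD, 6.14 ± 1.48 in Klf5 KD and 9.50 ± 3.33 in dKD, a log2 fold change of 1.89 (SE 0.508, adjusted p = 0.039) in Nr5a2 KD and 2.03 (SE 0.482, adjusted p = 0.025) in dKD. The 3 Klf5 KD libraries also lay above both controls, at 1.37 (SE 0.492, adjusted p = 0.53), and dKD overlapped Klf5 KD, at 0.63 (SE 0.372, adjusted p = 0.31). With the mitochondrial share as a covariate the values of Nr5a2 KD and dKD against control were 1.30 (adjusted p = 0.19) and 1.60 (0.0638), among libraries with a share of at least 8% 1.48 (0.0873) and 1.65 (0.112), and the Nr5a2 KD call was also lost under the replicate block (0.0764). Its exons overlap Gm12977 on the other strand. Of the 21 genes of this group 19 passed in Nr5a2 KD against control, with 3 called. The adaptor Grb2, not called, was at 95.8 ± 6.03 CPM in control and 61.8 ± 9.05 in Nr5a2 KD (adjusted p = 0.12).

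Among the other feedback genes and inhibitors, Rasa2 and Flrt3 were called higher in Nr5a2 KD and dKD against control and in dKD against Klf5 KD, and Spred3 in the last alone. Rasa2, which switches RAS off by hastening GTP hydrolysis, was at 16.9 and 19.3 CPM in control, 38.6, 38.8 and 50.6 in Nr5a2 KD, 13.1, 23.0 and 20.1 in Klf5 KD, and 38.3, 45.0, 56.2 and 51.9 in dKD. All 7 libraries with Nr5a2 siRNA lay above all 5 without. Its log2 fold change was 1.26 (SE 0.266, adjusted p = 0.013) in Nr5a2 KD and 1.44 (SE 0.260, adjusted p = 0.0080) in dKD against control, and 1.37 (SE 0.268, adjusted p = 0.0054) in dKD against Klf5 KD. Flrt3, a transmembrane protein that associates with FGF receptors, had 0 counts in all 5 libraries of control and Klf5 KD, 27, 6 and 34 counts in Nr5a2 KD and 14, 16, 11 and 10 in dKD. With the group at 0 set to 3 counts in all, it was at least 13.2-fold higher in Nr5a2 KD and at least 7.49-fold higher in dKD than in control (adjusted p = 0.019 and 0.025), and at least 14.1-fold higher in dKD than in Klf5 KD (adjusted p = 0.0046). Spred3, a relative of Spred1, rose in dKD against Klf5 KD, from 1.26 ± 0.3199 CPM (n = 3) to 4.47 ± 1.51 (n = 4), a log2 fold change of 1.85 (SE 0.502, adjusted p = 0.029), and shares exon sequence with Ggn on the other strand. Against control, at 1.48 ± 0.173 CPM, it was not called, at 1.86 (SE 0.551, adjusted p = 0.056) in Nr5a2 KD, with 5.33 ± 1.28 CPM, and 1.61 (SE 0.554, adjusted p = 0.097) in dKD. For Spred3 too, all 7 libraries with Nr5a2 siRNA lay above both controls. In Nr5a2 KD against control, the mitochondrial share as a covariate ended the calls of Rasa2 (1.00, adjusted p = 0.0518) and Flrt3 (0.0813), and the replicate block that of Flrt3 (0.0512). Among libraries with a share of at least 8%, Flrt3 was lost in dKD against control (0.0512), and Rasa2 (0.97, 0.0635) and Spred3 (1.87, 0.101) in dKD against Klf5 KD, where the replicate block ended the calls of Flrt3 (0.0528) and Spred3 (1.67, 0.181). The Spred3 change was thus as large among those libraries, and no fold is given for Flrt3, which had 0 counts in 1 group of each comparison. Not called were Cbl, a ubiquitin ligase for active receptors (37.3 ± 2.20 CPM in control, 48.4 ± 16.0 in Nr5a2 KD, adjusted p = 0.43), and Rasa1 (54.9 ± 13.035 and 44.6 ± 4.91, adjusted p = 0.54).

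Of the ERK-responsive transcription genes, the immediate early genes Fos and Ier2 rose in Nr5a2 KD and Jun in dKD, all from low levels, and Jun in Nr5a2 KD, at 1.41, 3.30 and 1.32 CPM against 0.151 and 0.134 in control, missed the threshold (ratio 13.8, adjusted p = 0.056). Fos had 1 count over both controls, 13, 40 and 24 counts in Nr5a2 KD, and 30, 0, 18 and 39 in dKD. The level in Nr5a2 KD was 45.6-fold that of control, with a counting interval of 7.95 to 1826 (adjusted p = 0.017). In dKD the 38.3-fold ratio (6.70 to 1530) was not called (adjusted p = 0.0915), and 1 of its 4 libraries had no count. In Klf5 KD Fos had 8, 3 and 0 counts, 5.85-fold control (0.851 to 252) and under the filter. Libraries of dKD and Klf5 KD overlapped for Fos (2.73, SE 1.07, adjusted p = 0.117). Ier2 was at 0.151 and 1.61 CPM in control and 3.76, 6.18 and 8.02 in Nr5a2 KD, a log2 fold change of 2.74 (SE 0.765, adjusted p = 0.045), and at 3.08 ± 1.48 CPM in Klf5 KD. In dKD it was at 3.90 ± 2.13 CPM, above both controls at a log2 fold change of 2.14 (SE 0.813) that was not called (adjusted p = 0.13), and overlapped Klf5 KD (0.34, SE 0.512, adjusted p = 0.72). The Ier2 value in Nr5a2 KD was 1.91 without control replicate 1 and 5.20 without control replicate 2, so its size rests on which control is kept. Jun had 2 counts over both controls and 58 over dKD, a ratio of 12.8 (3.38 to 108, adjusted p = 0.048), and 2 over Klf5 KD, a ratio of 24.0 (6.35 to 203, adjusted p = 0.014). Under the replicate block, and among libraries with a mitochondrial share of at least 8%, the calls of Ier2 (2.72 and 2.46, adjusted p 0.0509 and 0.0813) and of Jun (0.0819 and 0.0846 in dKD against control, 0.101 and 0.0963 against Klf5 KD) were lost. The fitted log2 values of Jun against control, 3.72 in both, were not below the 3.57 of the fit reported, and those against Klf5 KD were 4.24 and 3.79 beside 4.29. The share as a covariate also ended the calls of Ier2 (2.40, adjusted p = 0.133) and of Jun in dKD against control (3.725, 0.0590). One fit over 12 libraries ended those of Fos (5.29, 0.0625) and of Jun in dKD against control (3.57, 0.0566). The fits reported gave 2.74 for Ier2, 5.275 for Fos and 3.57 for Jun, the last 2 on 1 and 2 control counts. Jun shares exon sequence with Junos on the other strand, where their reads cannot be told apart, and its count was not whole, as a shared read makes it, in 1 of 12 libraries. Of the 20 genes of this group 9 passed in Nr5a2 KD against control. Myc was at 18.6 ± 0.903 CPM in control and 9.67 ± 2.21 in Nr5a2 KD (adjusted p = 0.097), and Elk4, an ETS partner of SRF, at 15.3 ± 4.29 and 12.0 ± 1.03 (adjusted p = 0.59).

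Among other receptor tyrosine kinases, Erbb3 rose with Nr5a2 siRNA. Erbb3, a neuregulin receptor of the EGF receptor family, was at 13.8 and 6.83 CPM in control, 32.5, 32.8 and 60.8 in Nr5a2 KD, 7.45, 9.31 and 8.50 in Klf5 KD, and 33.8, 32.5, 39.5 and 35.3 in dKD, again with no overlap between libraries with and without Nr5a2 siRNA. The log2 fold change was 2.07 (SE 0.398, adjusted p = 0.0082) in Nr5a2 KD and 1.82 (SE 0.317, adjusted p = 0.0068) in dKD against control, and 2.08 (SE 0.252, adjusted p = 4.0e-04) in dKD against Klf5 KD. Pdgfra, a receptor known as a marker of primitive endoderm, was at 6.15 ± 0.933 CPM in control, 15.3 ± 5.02 in Nr5a2 KD, 2.03 ± 1.29 in Klf5 KD and 7.58 ± 3.70 in dKD. It was called higher in dKD against Klf5 KD, at 1.89 (SE 0.522, adjusted p = 0.031), and not in Nr5a2 KD against control (1.35, SE 0.390, adjusted p = 0.052), and its exons overlap 3 other genes. Libraries of dKD overlapped the controls (0.34, SE 0.456, adjusted p = 0.70). Those of Klf5 KD all lay below both controls (-1.57, SE 0.569, adjusted p = 0.54), so the call rests on the low level in Klf5 KD. The Pdgfra call was lost under ERCC library sizes (1.96, adjusted p = 0.0593), the replicate block (1.93, 0.122) and the restriction to libraries with a mitochondrial share of at least 8% (1.93, 0.140), though the value was no smaller under any of them. Kit was at 2.25 ± 0.408 CPM in control and 0.726 ± 0.206 in Nr5a2 KD (adjusted p = 0.23), and Insr was under the filter there.

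**Figure D5:**
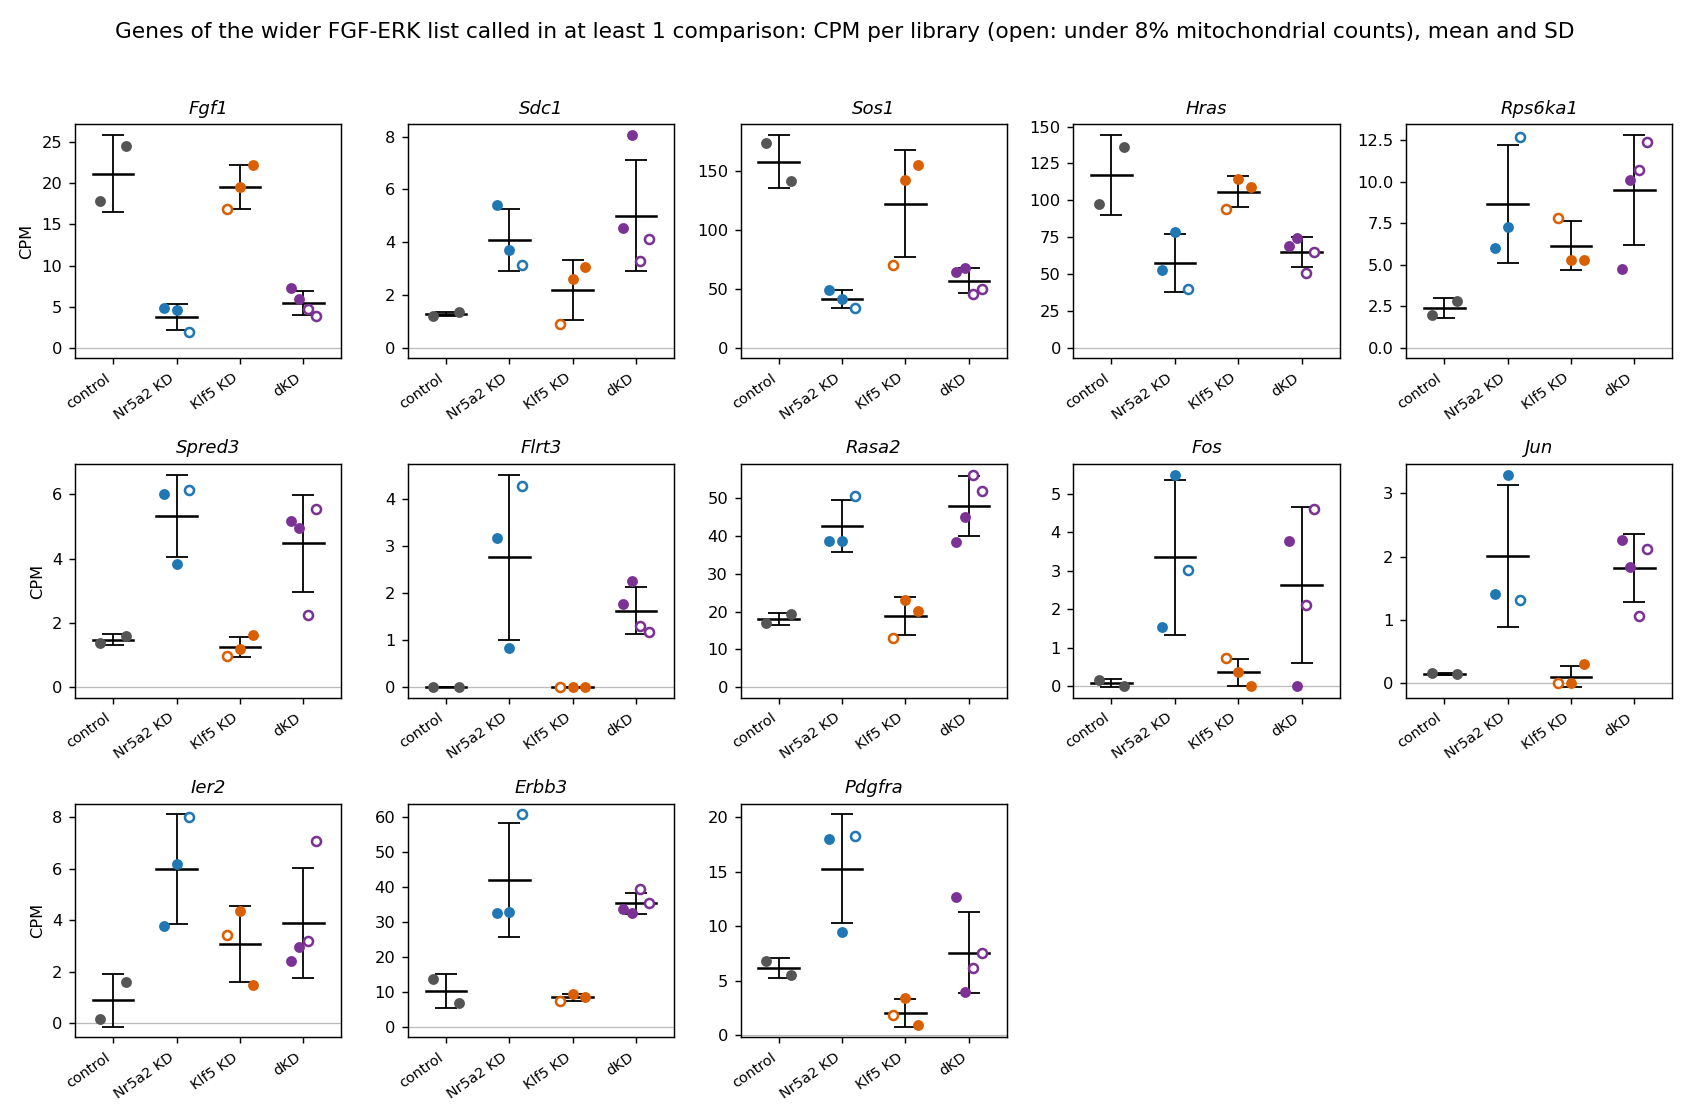
CPM per library of the 13 genes of the wider list that were called in at least 1 comparison, by group; points are libraries (open where mitochondrially encoded genes took under 8% of counts), lines and bars are mean and SD. Fgf1 and Sos1 are lower, and Rasa2, Erbb3 and Flrt3 higher, in Nr5a2 KD and dKD than in control.

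On the 2 backgrounds that share no library, 5 genes of the list were called in both (Erbb3, Fgf1, Flrt3, Rasa2 and Sos1), which is 55.6% of the 9 called in Nr5a2 KD against control and 62.5% of the 8 called in dKD against Klf5 KD. Over all genes, 613 were called in both, 58.8% and 44.0% of those called in each. Of 54 genes of the list tested in both, 46 (85.2%) had the same sign, beside 71.5% of 12393 genes. Whether the list differs from other genes in this was not tested. Same-numbered libraries of Nr5a2 KD and dKD deviated together from their group means, so the 2 backgrounds may not be fully separate. Single libraries decided several calls. In Nr5a2 KD against control, Fgf1, Sos1 and Erbb3 were the calls that held without control replicate 1 (adjusted p of the 6 lost, 0.0705 to 0.245), and Sos1 and Ier2 those without control replicate 2 (7 lost, 0.0617 to 0.390). Leaving out Nr5a2 KD replicate 1 ended the call of Hras (0.127), replicate 2 those of Fos and Ier2 (0.0518 to 0.0743), and replicate 3 those of Hras, Rps6ka1 and Ier2 (0.0502 to 0.0873). In dKD against control, Fgf1 and Erbb3 held without control replicate 1 (6 lost, 0.0715 to 0.243) and Sos1 without control replicate 2 (7 lost, 0.0852 to 0.249), and dKD replicates 3 and 4 each ended the calls of Sdc1, Rps6ka1 and Jun (0.0510 to 0.107). Without dKD replicate 1 or replicate 2, Sdc1 and Jun were lost (0.0525 to 0.0939). In dKD against Klf5 KD, Fgf1, Flrt3, Rasa2 and Erbb3 were called without any of the 7 libraries in turn. The calls lost there were Spred3, Jun and Pdgfra without Klf5 KD replicate 1, Sos1, Spred3 and Jun without replicate 2, and Sos1 and Pdgfra without replicate 3 (0.0533 to 0.0933). They were Spred3 and Pdgfra without dKD replicate 1, Spred3 without replicate 2, Sos1 without replicate 3, and Sos1, Spred3 and Pdgfra without replicate 4 (0.0557 to 0.0826). Restricted to libraries with a mitochondrial share of at least 8%, 7, 4 and 4 genes of the list were called in the 3 comparisons in place of 9, 8 and 8. Over all genes the restricted fits called 600 lower and 418 higher, 405 and 258, and 413 and 337. The fits reported called 586 and 457, 529 and 464, and 698 and 694.

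The genes nearest to Dusp6 in pattern were Gsc, Pxt1, Luzp4, Calm5 and Dkk1. Nearness was the mean absolute difference in log2 CPM, each gene centred on its own mean, over 12 libraries and among 8449 genes with a mean of at least 5 CPM. It was 0.765 for Gsc and 1.13 to 1.20 for the other 4, beside a median of 2.55 over all genes. Gsc, a homeobox gene of the primitive streak, had group means of 3.84 CPM in control, 37.3 in Nr5a2 KD, 0.798 in Klf5 KD and 23.5 in dKD. Calm5, a calmodulin-like gene, was at 44.8, 180 and 12.3 CPM in control, Nr5a2 KD and Klf5 KD, and at 135.6 in dKD. Dkk1, a secreted WNT inhibitor, was at 0.252 CPM in control, 13.6 in Nr5a2 KD, 0 in Klf5 KD and 13.6 in dKD. Pxt1 was at 1.14, 11.3, 0.872 and 11.9 CPM, and Luzp4 at 4.64, 13.8, 0.572 and 9.68 CPM, in the same 4 groups. They were picked for this likeness, so their order across groups is not a further result.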

How the data were processed

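The authors trimmed the reads (Trim Galore 0.6.2), aligned them with STAR to a GRCm38 reference that also held the spike-in and H2B-EGFP, and ran featureCounts 2.0.1 on exons, per the file headers, the submitters' processing notes and their methods (which spell the build otherwise; GRCm38 is that of the headers and notes). The values deposited by the authors are estimated counts (expected count type) per gene with no normalization. Reads were counted in pairs without strand and shared in fractions among overlapping genes, which leaves 7.3% to 8.66% of values per library not whole, so values were rounded for the tests. Symbols came from the GENCODE M21 gene table for 55141 of 55401 genes, and 260 kept their identifier.

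Genes were filtered with filterByExpr (minimum count 10, minimum total 15) and tested with edgeR 4.0.16 in R 4.3.3 (TMM factors, glmQLFit and glmQLFTest, two-sided, only the libraries of the groups compared, and all 12 for the interaction), with Benjamini-Hochberg adjustment over all genes tested. Standard errors are the log2 fold change divided by the root of F. CPM values use TMM factors over 12 libraries. The tests were tested on simulated data with known changes. DESeq2 1.42.0, other scalings, no filter, a fit over all libraries, the replicate number as a block, the mitochondrial share as a covariate and leaving out each library were the alternatives, and a restriction to libraries with at least 8% mitochondrial counts was chosen after seeing the data.

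The 10 genes and the lists were chosen with earlier results of these data known. The 10 genes were part of each fit, but only their calls are given, as a description, and tests are reported for the wider list. Every gene of the wider list called in a fit is named (up to 12 per fit by size of change), with the 2 most abundant genes not called of each role, and the 5 genes nearest to Dusp6. A gene that this rule names is not reported here. No library repeated another: counts of every pair within a group differed by more than sampling noise (chi-square per degree of freedom 8.33 to 91.9). Amplification had no molecular identifiers, so intervals and floors cover counting error only. Same-numbered libraries of Nr5a2 KD and dKD deviated together from their group means (correlations of 0.13, 0.221 and 0.254 over 14830 genes). That hint comes from the data alone, and the block changed no call of the list between these groups.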

Additional observations from a re-analysis of the deposited data

Results flagged for a closer look

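In dKD, the highest of the 4 libraries for Ier2, replicate 4, had 7.07 CPM, where the other 3 had 2.40, 2.97 and 3.18 CPM, and its distance from them exceeded the limit set for a group of 4 (Dixon's test at 95%). Among the 22 genes whose dKD values were examined in this way Ier2 was the only such case, and chance gives about 1 in 20. The library is also a library of low mitochondrial share (6.17%), whose part in the value was not tested.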

How the results depend on the processing

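Of the genes of the wider list called in Nr5a2 KD against control (9), the replicate block left 5 and the mitochondrial share as a covariate 4, and leaving out 1 library gave 2 to 9. In dKD against control (8), ERCC library sizes gave 20, the restriction to libraries of at least 8% mitochondrial counts (chosen after seeing the data) 4, and leaving out 1 library 1 to 7. In dKD against Klf5 KD (8), no filter on low counts gave 13, the replicate block 3, the same restriction 4, and leaving out 1 library 5 to 9. Over all genes, ERCC library sizes called 178 lower and 2838 higher in dKD against control, beside 529 and 464 in the fit reported. In Nr5a2 KD against control the block called 508 and 362 and the covariate 373 and 282, beside 586 and 457. In dKD against Klf5 KD no filter called 912 and 936 of 28362 genes and the block 288 and 244, beside 698 and 694. The restriction and leaving out a library use fewer samples, and the cause of the other shifts was not tested. In the comparisons against control the lowest counts came from fits with 1 control library, where calls fell over all genes too. The other 3 comparisons gave 0 under every alternative run. The replicate block changed the number of calls by over 1.5 times in Nr5a2 KD against control and in dKD against Klf5 KD only. Over all genes it called 146 lower and 107 higher in Klf5 KD against control, where edgeR as reported, without the block, called 0. Outside Nr5a2 KD and dKD the same-numbered libraries share a number but do not all deviate together (correlations from -0.203 to 0.0594).

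For the 10 genes, 428 alternative log2 fold changes moved by less than the spread of the libraries and 31 by more, most of them under ERCC library sizes. Leaving out 1 library gave 354 and 14, among them Spry4 without control replicate 2, which turned from -0.40 to 0.17 in Nr5a2 KD and from -0.31 to 0.25 in dKD. No called gene changed direction. Against control, the median over all genes under ERCC library sizes was 0.82 in Nr5a2 KD, 0.66 in Klf5 KD and 0.84 in dKD on the log2 scale. The pairing changed calls of Dusp6 in Klf5 KD against control, which it gained, and of Etv5 in dKD against Klf5 KD, which it lost. Without division by exon length, Fgfr2 had place 1 in control and Spry2 place 3. Depth limits Dusp4, Spry4 and Etv4, which had at most 22 counts in a library.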
